A study of Mus musculus with 4 samples.

Results

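The expression of 9 genes by which astrocytes are commonly recognised was followed through single nuclei of the mouse posterior hindbrain. The genes were taken from a list written for this work, *Gfap*, *Aqp4*, *Slc1a2*, *Slc1a3*, *Gja1*, *Aldh1l1*, *Glul*, *S100b* and *Slc4a4*, and the rule uses no measured value, although the list was chosen with earlier results of these data known. They are 9 of the 32285 genes in the count matrices, and UMIs (molecules counted once each) of all 9 were found. Levels were read in the 11 clusters, 4378 nuclei in all, that the authors' deposited annotation calls astrocytes, in the nuclei it calls tanycyte-like and ependymal, and in the other types among 39461 kept nuclei, 14 types and 184 clusters in total.

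Astrocytes take up the glutamate released at synapses, turn it into glutamine, buffer potassium and bicarbonate, and pass water at end-feet that wrap blood vessels. They are joined to each other by gap junctions and are stiffened by a filament protein whose amount differs widely between brain regions. Tanycytes and ependymal cells are related glia that line the ventricles and share part of this equipment, which is why both were set beside astrocytes here.

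The tissue was the part of the hindbrain that holds the area postrema and the nucleus of the solitary tract, which receive signals from the gut and blood. Adult mice of 12 to 20 weeks and both sexes were used. In AgRP-Gq;POMC-Gi mice (AgRP-IRES-Cre+/-, POMC-Dre+/-, hM3DGq fl/-, hM4DGi fl/-) an activating designer receptor depends on Cre in AgRP neurons and an inhibiting one on Dre in POMC neurons, so neither is aimed at astrocytes. The control littermates, labelled WT, lacked Cre and Dre but carried both receptor alleles according to the study's methods, the activating one behind a loxP-flanked and the inhibiting one behind a rox-flanked stop. Every mouse of both groups was injected with the receptor ligand clozapine-N-oxide (CNO) at 3 mg per kg and was kept without food for the 1 h before tissue was taken. There were 2 libraries per group, made from nuclei sorted on a DNA dye with the 10x Genomics 3′ kit. Mice of a condition were pooled and it is not stated which mouse went into which library, so p-values measure the spread between libraries.

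The 4 libraries held 9723 to 10051 kept nuclei and 48904976 to 53089402 UMIs each, with a median of 3211 to 3502 UMIs per nucleus, and 168 barcode sequences occurred in more than 1 library. In astrocytes the median was 4008 and 3395 UMIs in the control and 3010.5 and 3202 in AgRP-Gq;POMC-Gi libraries, and the median share of mitochondrial UMIs over all nuclei was 0.202% and 0.260% against 0.120% and 0.187%. Both were lower without overlap in AgRP-Gq;POMC-Gi libraries, and their part in the differences between groups was not tested. Control 2 and AgRP-Gq;POMC-Gi 2 stood apart in choroid plexus, with 436 and 329 nuclei of that type against 2 and 6 in the other two libraries. In astrocytes the summed level of 5 choroid plexus markers was 4.76 and 2713 counts per 1000000 UMIs (CPM) in control libraries and 18.8 and 1653 CPM in the AgRP-Gq;POMC-Gi group. Both groups have 1 such library, and each comparison is given below with any call that leaving out 1 library changes. *Xist*, transcribed from the inactive X chromosome, was at 1107, 745 and 1357 CPM in astrocytes of 3 libraries and at 48.2 CPM in AgRP-Gq;POMC-Gi 2. With these values and the choroid plexus counts, the libraries of neither group were portions of 1 pool of nuclei. By *Xist*, AgRP-Gq;POMC-Gi 2 held few female nuclei compared with the other libraries, so sex was not balanced between the groups. The part of sex in the differences between groups was not tested. Neurons made up 25.4% and 27.2% of nuclei in control libraries and 38.0% and 36.5% in AgRP-Gq;POMC-Gi libraries.

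The astrocyte label was read against 9 other astrocyte genes, which summed to 11234 to 12880 CPM in astrocytes and to means of 1383 CPM in tanycyte-like and 818 CPM in ependymal nuclei. *Gpc5* alone made up 74.9% of the astrocyte sum. Without it the sums averaged 3038, 1194 and 657 CPM, and the astrocyte range of 2914 to 3151 CPM was still above every library of the other two. Within the list *Sox9* (104 CPM in astrocytes, 126 in tanycyte-like and 204 in ependymal nuclei) and *Mlc1* (60.8, 168 and 154 CPM) were lower in astrocytes. The ependymal label was read against 7 genes, cilium-related apart from the secreted *Rarres2*, which summed to a mean of 7379 CPM in ependymal nuclei and 17.7 CPM in astrocytes. The tanycyte-like label is met only in part. *Vim* (121 to 256 CPM) and *Nes* (87.4 to 189 CPM) were present there, but *Rax* and *Gpr50*, which define hypothalamic tanycytes, did not exceed 12.5 CPM in any library and *Sprr1a* was at 0 in all 4. The name is kept here only as that of the deposited annotation, for 202 nuclei in cluster 61 and a smaller cluster.

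In the GRCm38 assembly the genes span *Slc1a2* (ENSMUSG00000005089) on chromosome 2 from 102658659 to 102790784, *Slc1a3* (ENSMUSG00000005360) on chromosome 15 from 8634124 to 8710764, *Glul* (ENSMUSG00000026473) on chromosome 1 from 153899944 to 153909723, *Aqp4* (ENSMUSG00000024411) on chromosome 18 from 15389496 to 15410982, *Slc4a4* (ENSMUSG00000060961) on chromosome 5 from 88886818 to 89239653, *Gja1* (ENSMUSG00000050953) on chromosome 10 from 56377330 to 56402513, *Gfap* (ENSMUSG00000020932) on chromosome 11 from 102887336 to 102900912, *Aldh1l1* (ENSMUSG00000030088) on chromosome 6 from 90486427 to 90600203 and *S100b* (ENSMUSG00000033208) on chromosome 10 from 76253853 to 76261159. *Gfap*, *Aqp4* and *Slc1a3* lie on the minus strand and the other 6 on the plus strand. Part of *Aldh1l1* overlaps a second gene of the same strand that is also in the matrices, so its UMIs could be divided between them. All levels are CPM of nuclear RNA, over the UMIs of the same nuclei summed per library. They are not corrected for transcript length, so each gene is compared between cells and not with the other genes.

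The glutamate genes separated astrocytes from other cells to very different degrees. *Slc1a2* encodes the glutamate transporter GLT-1, which clears most of the glutamate released at forebrain synapses. Its level in astrocytes was 3443 and 2969.9 CPM in control libraries and 3008 and 3003 CPM in the AgRP-Gq;POMC-Gi group, or 3106 ± 225 CPM (mean ± SD, n = 4 libraries, as for all levels below). The next types were oligodendrocyte precursors (OPC) at 469.9, 504, 508 and 484 CPM in the same order of libraries and tanycyte-like nuclei at 594, 262, 491 and 380.2 CPM, so no library of these came near any astrocyte value. Neurons stood at 49.2 ± 14.4 CPM.

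*Slc1a3* encodes GLAST, the second glial glutamate transporter, which radial glia and ventricular glia also carry. It was highest not in astrocytes but in tanycyte-like nuclei, at 615, 862, 1491 and 1521 CPM, a mean of 1122 ± 455 CPM. Astrocytes held 463, 521, 663 and 508 CPM, or 539 ± 86.5 CPM. The lowest tanycyte-like library lay below the highest astrocyte library, so these neighbours in the order overlapped. Within each library tanycyte-like nuclei were higher, at 133%, 165%, 225% and 299% of the astrocyte level. Fibroblasts (455 ± 142 CPM), the microglial type Tmem119.Immune (346 ± 97.7 CPM) and ependymal nuclei (272 ± 35.1 CPM) followed, and neurons were at 3.76 ± 0.423 CPM.

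*Glul* encodes glutamine synthetase, the enzyme that turns the captured glutamate into glutamine. It did not tell astrocytes from oligodendrocytes. Astrocytes held 539.6, 509, 502 and 407 CPM and oligodendrocytes 478, 509, 509 and 453 CPM, with means of 489 ± 57.3 and 487 ± 27.0 CPM, and the order of these types turned round when control 1 was left out or when nuclei were thinned to 800 UMIs. Neurons stood at 20.8 ± 6.77 CPM, below every library of both.

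Of the water and ion genes, *Aqp4*, the water channel of the end-feet, was shared with ependymal cells. Its astrocyte level was 353, 320.3, 446 and 441 CPM (390.2 ± 63.3) and its ependymal level 394, 324, 329.5 and 230.4 CPM (319 ± 67.4), and the libraries of these types overlapped. Tanycyte-like nuclei were at 176 ± 70.1 CPM and neurons at a mean of 3.81 CPM. *Slc4a4*, the sodium bicarbonate cotransporter NBCe1, gave an order without overlap. Astrocytes held 3631, 3611, 3887 and 3628 CPM (3689 ± 132), tanycyte-like nuclei 2049, 1424, 1539.6 and 1965 CPM (1744 ± 309) and ependymal nuclei 796, 393, 494 and 643 CPM (582 ± 176). Oligodendrocytes were at 18.9 ± 1.03 CPM.

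*Gja1* encodes connexin 43, the main gap junction protein of astrocytes. Its level was 361, 367, 343 and 377 CPM in astrocytes, the next being 238, 244, 239 and 161 CPM in ependymal and 287, 112, 136 and 159 CPM in tanycyte-like nuclei. Every astrocyte library was above every library of these, and fibroblasts, which also couple through connexin 43, were at 111 ± 19.8 CPM.

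*Gfap*, which encodes the glial filament protein, was not highest in the annotated astrocytes. Tanycyte-like nuclei held 328, 225, 330.3 and 445 CPM (332 ± 89.8) and astrocytes 116, 73.7, 98.6 and 111 CPM (99.7 ± 18.8), with no overlap. In ependymal nuclei control 1 was at 124.9 CPM and the other 3 libraries were at 14.9, 20.6 and 34.8 CPM, so that mean (48.8 CPM) rests on 1 library.

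*Aldh1l1*, a folate enzyme used as a general astrocyte marker, was at 127, 117, 119 and 120.5 CPM in astrocytes. Tanycyte-like nuclei came next at 92.2, 25.0, 38.9 and 64.4 CPM, all below astrocytes. *S100b*, a calcium-binding protein, was the least particular to astrocytes, which took place 6 among the 14 types at 97.8, 100.3, 99.5 and 93.8 CPM (97.8 ± 2.85). Tanycyte-like nuclei held 164, 325, 155 and 144 CPM, the mixed type Oligodendrocytes/OPC 231, 90.8, 191 and 248 CPM and oligodendrocytes 139, 136, 135 and 152 CPM. Every oligodendrocyte library was above every astrocyte library, and neurons were at 25.3 ± 3.56 CPM.

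**Figure D1:**
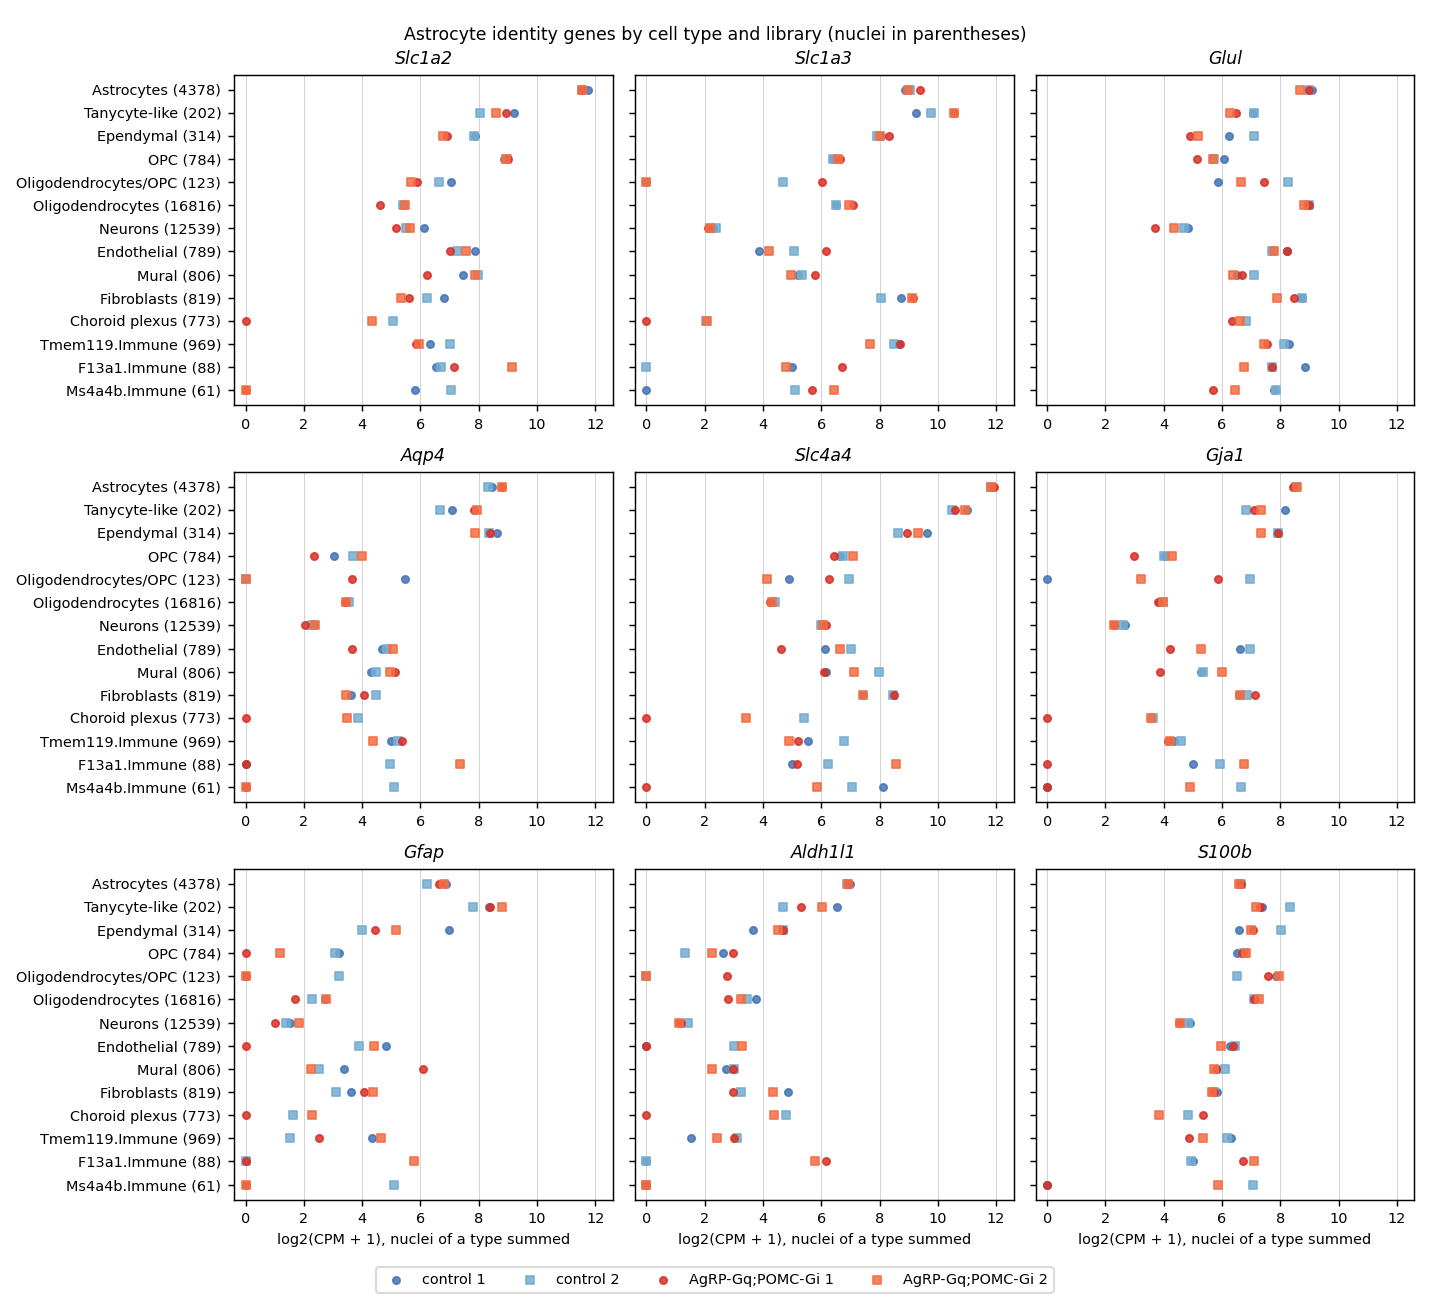
Level of each of the 9 genes by cell type, as log2(CPM + 1), with 1 point per library and the groups in different colours. By the mean over libraries astrocytes are highest in 6 of the 9 panels, tanycyte-like nuclei in those of *Gfap*, *Slc1a3* and *S100b*. Single libraries of astrocytes overlap those of oligodendrocytes for *Glul* and those of ependymal nuclei for *Aqp4*. The choroid plexus of control 1, with 2 nuclei, is left out.

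Set against its own astrocyte level, each gene had its own set of other cells. In oligodendrocytes the levels ran from 0.513% of the astrocyte level for *Slc4a4* and 1.2% for *Slc1a2* through 20.2% for *Slc1a3* to 100.3% for *Glul* and 144% for *S100b*. In neurons they ran from 0.715% for *Slc1a3* to 4.27% for *Glul*, apart from *S100b* at 25.8%. Tanycyte-like nuclei held 331% of the astrocyte level of *Gfap*, 206% of *Slc1a3* and 200% of *S100b*, and 43.7% to 48% of *Aqp4*, *Aldh1l1*, *Slc4a4* and *Gja1*. The glutamate genes *Glul* and *Slc1a2* were the lowest there, at 22% and 13.8%. The larger of the 2 tanycyte-like clusters, 61 with 142 nuclei, was at 71.5 CPM of *Gja1* and 204 CPM of *Slc1a2*. The other, with 60 nuclei, was at 352 and 906 CPM, so these mean levels were carried by the smaller cluster. In control 2 *Slc1a2* went the other way, at 318 CPM in cluster 61 and 98.7 CPM (2 UMIs) in the smaller cluster. Ependymal nuclei held 155% of the astrocyte level of *S100b*, 84.7% of *Aqp4*, 61.2% of *Gja1* and only 5.53% of *Slc1a2*. Their *Aqp4* came from cluster 37, at a mean of 456 CPM, while the other ependymal cluster, 71, was at 78.3 CPM. Each percentage is the mean of the 4 ratios formed within a library and carries no test, since the types were annotated from these nuclei.

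The stretches just before the start sites of *Gfap*, *Slc1a3* and *S100b* are shown because these were the 3 genes whose level was highest outside astrocytes. Each is the 250 bases before the start site in RefSeq (GRCm38.p6), written 5′ to 3′ on the strand of the gene, with capitals for letters that match a searched motif on either strand. The *Gfap* window is chr11:102897201-102897450 on the minus strand, in an intron of the longer *Gfap* models. The *Slc1a3* window, chr15:8710808-8711057 on the minus strand, and the *S100b* window, chr10:76253586-76253835 on the plus strand, lie outside annotated genes.
Gfap: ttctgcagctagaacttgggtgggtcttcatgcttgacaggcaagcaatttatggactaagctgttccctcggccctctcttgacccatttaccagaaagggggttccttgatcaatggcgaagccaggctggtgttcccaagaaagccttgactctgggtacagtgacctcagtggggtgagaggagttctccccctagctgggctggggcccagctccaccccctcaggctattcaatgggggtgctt
Slc1a3: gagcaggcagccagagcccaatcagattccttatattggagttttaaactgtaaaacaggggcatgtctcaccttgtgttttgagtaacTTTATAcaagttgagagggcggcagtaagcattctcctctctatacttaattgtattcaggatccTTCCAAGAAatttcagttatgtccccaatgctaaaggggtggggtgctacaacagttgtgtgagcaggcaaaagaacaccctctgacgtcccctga
S100b: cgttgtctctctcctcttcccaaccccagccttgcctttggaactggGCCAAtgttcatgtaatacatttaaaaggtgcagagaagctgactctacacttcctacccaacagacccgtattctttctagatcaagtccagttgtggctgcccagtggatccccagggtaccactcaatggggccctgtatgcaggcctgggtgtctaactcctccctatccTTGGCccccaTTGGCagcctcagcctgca
The motifs were the NFI half-site TTGGC, the SOX motif ACAAAG, the STAT motif TTCNNNGAA, the TATA box TATAAA and the E-box CACCTG, each on both strands, which occur in 41.5%, 16.5%, 7.02%, 12.4% and 17.2% of all 32851 such windows. On the other strand the NFI half-site reads GCCAA and overlaps the CCAAT box where T follows. *S100b* held 3 NFI half-sites, at 203, 29 and 19 bases before the start, and *Slc1a3* held a STAT match (TTCCAAGAA) at 96 and a TATA box on the other strand at 161 bases before it. No searched letters were found in the *Gfap* window. RefSeq windows were matched for 8 of the 9 genes, all but *Aqp4*, and an NFI half-site was present in 4 of the 8. A match of letters is a description and was not tied to any level here.

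Counting nuclei, *Slc1a2* and *Slc4a4* were found in nearly all astrocyte nuclei and the other genes in fewer. The share of nuclei also depends on the level of a gene, so a low share does not show that it is confined to some nuclei. *Slc1a2* was found in 98.4% (95% interval 98.0 to 98.8%) of 4378 astrocyte nuclei and *Slc4a4* in 98.4% (95% interval 97.9 to 98.7%), by exact Clopper-Pearson intervals, which cover counting error only. With every nucleus thinned to 800 UMIs the shares were 84.4% (83.3 to 85.5%) and 90.5% (89.6 to 91.4%). In neurons, with a median of 8704 UMIs against 3375.5 in astrocytes, the thinned shares were 3.92% and 4.88%. *Slc1a2* and *Slc4a4* were thus detected in most astrocyte nuclei even at a low depth.

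*Glul* was found in 73.7% of astrocyte nuclei and 31.2% after thinning, against 67.0% and 32.9% in oligodendrocytes (median 2460 UMIs). *Slc1a3* was found in 70.1% and 33.1% of astrocytes and in 84.2% and 55.9% of tanycyte-like nuclei (median 3198 UMIs). *Aqp4* was found in 63.3% and 25.4% of astrocytes and in 42.0% and 17.2% of ependymal nuclei. Detection of these 3 genes thus depended strongly on depth, and thinned *Glul* did not separate astrocytes from oligodendrocytes.

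The remaining genes ranged from *Gja1* down to *Gfap*. *Gja1* was found in 65.2% of astrocyte nuclei (24.6% thinned), *Aldh1l1* in 32.8% (9.37%) and *S100b* in 28.1% (7.81%). *Gfap* was found in 13.4% (5.73%), while tanycyte-like nuclei had it in 37.6% (17.8%). For neurons, where free RNA would give a background, the thinned shares of the 9 genes ran from 0.128% for *Aldh1l1* to 4.88% for *Slc4a4*. Every astrocyte share was above the neuronal share of its gene.

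The number of the 9 genes found in 1 nucleus differed widely between types. After thinning to 800 UMIs an astrocyte nucleus had UMIs of a median of 3 of the 9 genes (mean 3.12, and 3.14, 3.06, 3.19 and 3.10 by library) and at most 7. Only 21 astrocyte nuclei (0.480%) had none, and 70.2% had at least 3. Tanycyte-like nuclei had a mean of 2.04 genes, with 31.7% at 3 or more, and ependymal nuclei a mean of 1.07, with 7.96%. Oligodendrocytes and neurons reached 3 genes in 0.797% and 0.120% of nuclei. At full depth the astrocyte mean was 5.43 genes.

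**Figure D2:**
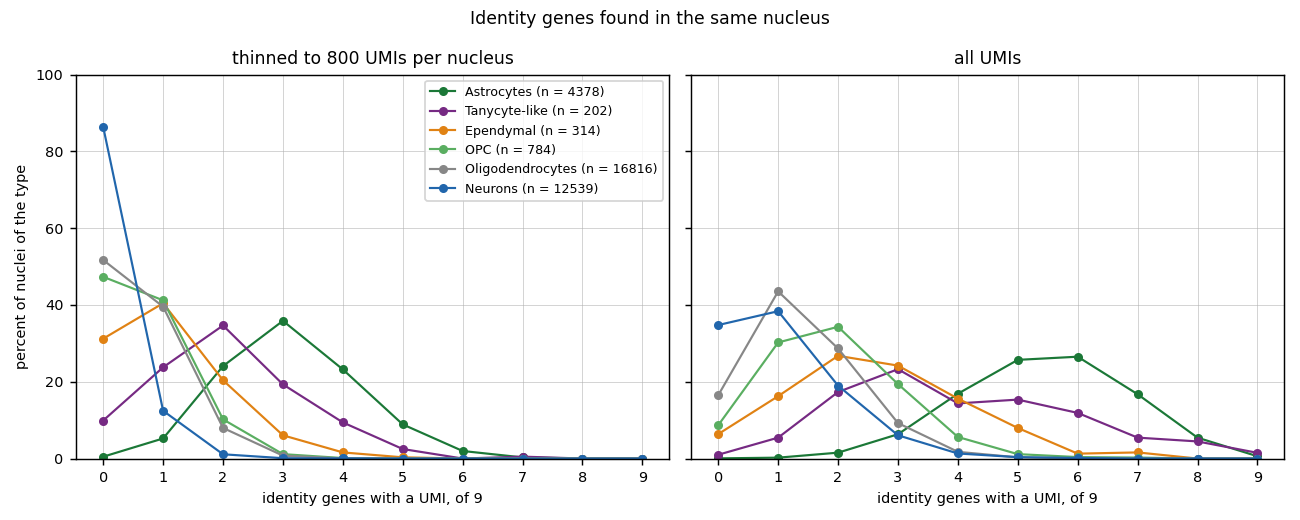
Percent of nuclei (vertical axis) with UMIs of 0 to 9 of the 9 genes (horizontal axis), by type, after thinning to 800 UMIs and at full depth. Astrocytes centre on 3 genes after thinning and on 5 at full depth, tanycyte-like nuclei on 2 after thinning, and neurons and oligodendrocytes on 0 after thinning.

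The 11 astrocyte clusters differed most in *Gfap*. Its cluster means ran from 11.3 CPM in cluster 18 to 1618 CPM in cluster 48, a 144-fold range with a median of 31.7 CPM. Cluster 48 held 1907, 1354, 1915 and 1297 CPM and cluster 54 304, 309, 525 and 377 CPM in the 4 libraries, above the tanycyte-like cluster 61 (209, 184, 215 and 435 CPM) for cluster 48 in every library. These 2 clusters hold 157 and 149 nuclei, 3.59% and 3.40% of astrocytes, and together 63.7% of the 1596 *Gfap* UMIs found in astrocytes, 54.2% in cluster 48 alone. Most of what was counted as astrocytic *Gfap* therefore came from few nuclei, present in all 4 libraries (24 or more nuclei of each cluster per library).

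Clusters 48 and 54 differed from the rest in other genes too. *Aqp4* was highest in cluster 48, at 1286, 1197, 1870.2 and 1271 CPM, with cluster 54 at 915 CPM and the median cluster at 344 CPM. *Gja1* was highest in cluster 54 (731 ± 119 CPM), where *Aldh1l1* was also highest (155 CPM), and *Slc1a2* was lowest there (1515 CPM). *Glul* was lowest in cluster 48, at 199, 226, 158 and 140.1 CPM, against a median cluster of 481 CPM. Of the 9 other astrocyte markers, 6 were lower in cluster 48 than in any of the other 9 clusters, among them *Gpc5* (470 CPM against 5124 or more) and *Slc7a10* (75.1 CPM against 376 or more), while *Sox9* (138 CPM) and *Mlc1* (110 CPM) were higher. In cluster 54, 3 were lower and *Mlc1* was higher. Without *Gpc5* these markers summed to 1743 CPM in cluster 48 and 2497 CPM in cluster 54, against 2486 to 3378 CPM in the others, so that cluster 54 then lay within their range. The tanycyte list summed to 437 and 195 CPM against 27 to 104 CPM, led by *Col23a1* (236 and 134 CPM). Of its 9 genes 6 were higher in cluster 48 and 5 in cluster 54 than in any of the other 9 clusters, and 0 were lower. Some of these were near 0, such as *Crym* (2.45 CPM in cluster 48). *Col23a1* averaged 107 CPM in tanycyte-like and 138 CPM in ependymal nuclei. The list also reached 963 CPM in fibroblasts and 557 CPM in endothelial nuclei. What these nuclei are beyond the annotation was not tested.

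Among the remaining clusters, cluster 20 had the most *Slc1a3* (1241, 1221, 1499 and 949 CPM, against 254 CPM in cluster 22), the most *Glul* (584 CPM) and the most *Slc4a4* (4102 CPM). Cluster 21 had the most *Slc1a2* (3786 CPM) and the least *Gja1* (257 CPM). Cluster 52 had the least *Aqp4* (249 CPM), *Aldh1l1* (54.6 CPM) and *Slc4a4* (2205 CPM) and the most *S100b* (179 CPM). Neuron markers summed to 4322 CPM and oligodendrocyte markers to 2121 CPM in cluster 52, against 266 to 622 and 441 to 689 CPM in the other 10 clusters, and their part in these levels was not tested. *Slc4a4* varied least between clusters, 1.86-fold, followed by *S100b* (2.20-fold) and *Slc1a2* (2.50-fold).

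**Figure D3:**
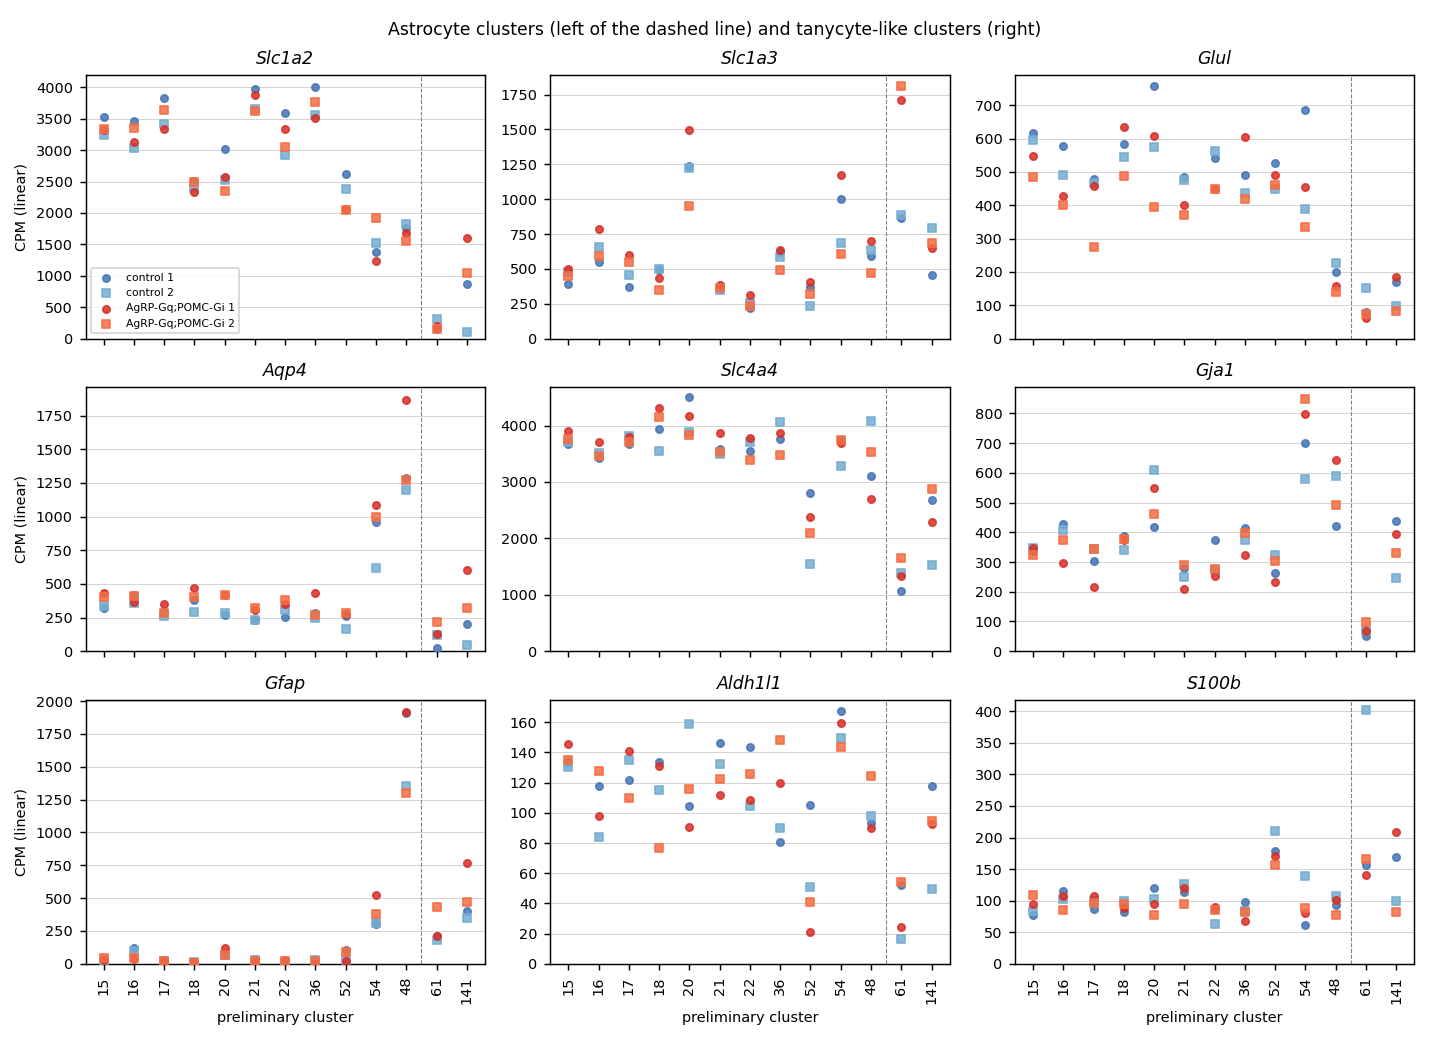
Level of each gene in CPM (linear axis) in the 11 astrocyte clusters, left of the dashed line, and in the 2 tanycyte-like clusters, right of it, with 1 point per library. *Gfap* stands out in cluster 48, *Aqp4* in clusters 48 and 54 and *Slc1a3* in cluster 20.

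Across the 11 cluster means (log2(CPM + 1), the same libraries in each cluster and no test), 19 of the 36 pairs of genes had a positive Pearson r. *Gfap* and *Aqp4* had r = 0.87, which was -0.04 over the 9 clusters without 48 and 54, so that relation rests on these 2 clusters. *Slc1a3* and *Gja1* (0.80, and 0.89 over 9 clusters) went together with and without them. So did *Aldh1l1* and *Slc4a4* (0.86 and 0.92), but both have their lowest mean in cluster 52 (54.6 and 2205 CPM), which is among the 9. *S100b* ran against *Slc4a4* (-0.87 and -0.89) and *Aldh1l1* (-0.80 and -0.84), whose extremes are in cluster 52. No r was computed without cluster 52, so how far the relations among *Aldh1l1*, *Slc4a4* and *S100b* rest on it was not tested.

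In single nuclei thinned to 800 UMIs, 251 astrocytes had a *Gfap* UMI and 4127 did not. *Aqp4* was found in 48.2% of the former and 24.0% of the latter and was more frequent in the former in all 4 libraries. *Slc1a2* (69.7% against 85.3%) and *Glul* (19.1% against 32.0%) were less frequent in them in all 4 libraries, while *Slc4a4* (90.04% against 90.5%) hardly differed. Without clusters 48 and 54, 118 nuclei had a *Gfap* UMI, and *Aqp4* (33.9% against 22.6%), *S100b* (14.4% against 7.74%) and *Gja1* (28.0% against 23.3%) were more frequent in them in all 4 libraries. The differences in *Slc1a2* (81.4% against 86.2%, lower in 3 of 4 libraries) and *Glul* (28.0% against 32.2%, lower in 2 of 4) then no longer held in every library.

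The genes most like each of the 9 over the 14 types were sought by Pearson r of mean log2(CPM + 1) among 15131 genes with at least 500 UMIs. *Etnppl*, *Prdx6* and *Enho* were most like *Gfap* (r = 0.93, 0.93 and 0.92), *Prdx6*, *Mt1* and *Slc6a11* most like *Aqp4* (0.93, 0.92 and 0.90), and *Prdx6*, *Palld* and *Atl2* most like *Slc4a4* (0.94, 0.94 and 0.91). *Gm3764*, *Gm13872* and *Ntsr2* were most like *Slc1a2* (0.95, 0.93 and 0.93), of which *Gm13872* overlaps it on the other strand. *Mt1*, *Mt2* and *Prdx6* were most like *Gja1* (0.91, 0.89 and 0.89), *Myorg*, *Phkg1* and *Lcat* most like *Aldh1l1* (0.91, 0.89 and 0.89), and *C730002L08Rik*, *Aldh1a1* and *Nacc2* most like *Slc1a3* (all 0.84). The genes nearest to *Glul*, *Homer3*, *Selenop* and *Wbp1l* (0.85, 0.82 and 0.80), were highest in immune types, and of those nearest to *S100b*, *Igsf11*, *Kcnj10* and *Scd2* (0.88, 0.86 and 0.83), the first and last were highest in oligodendrocytes. Among the 9 themselves *Gfap* and *Aqp4* had r = 0.88, and *Glul* reached at most 0.46 with any other. All types share the 4 libraries.

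Some of the 9 genes were high in a few neuronal clusters. Of 120 neuronal clusters with at least 5 nuclei per library, cluster 72 had the most *Slc1a2*, at 661, 1017, 1046 and 705 CPM, with a UMI in 96.9% of its 127 nuclei and a median neuronal cluster at 39.8 CPM. The other 8 genes averaged at most 42.5 CPM there (*S100b*), and *Aqp4* 6.03 CPM. Cluster 49 had the most *Slc4a4*, at 471, 922, 1087 and 955 CPM. A UMI was found in 94.2% of its 156 nuclei, and the median cluster was at 40.1 CPM. *S100b* took place 3 of the 120 clusters there (49.6 CPM against a median of 24.6). *Slc1a3* took place 5, at 15.7, 23.8, 9.53 and 5.34 CPM, a mean 5.24-fold that of the median cluster. *Gfap* (4.44 CPM, place 13) was at 2.97-fold, *Slc1a2* (place 19) at 1.85-fold and *Gja1* (place 30) at 1.48-fold of theirs. *Glul* (1.11-fold) and *Aqp4* (3.26 CPM, 1.03-fold) were near their medians, and *Aldh1l1* (0.779-fold) was below. *S100b* reached 54.8, 117, 67.0 and 58.4 CPM in cluster 116. For *Gfap*, *Aqp4* and *Aldh1l1* the highest neuronal cluster did not exceed a mean of 27.3 CPM.

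The comparison between groups asked whether the genes differed in astrocytes 1 h after CNO in AgRP-Gq;POMC-Gi mice and controls. None of the 9 passed the test in astrocytes. By edgeR's quasi-likelihood test 0 of the 9 were called at an adjusted p under 0.05, against 0.626% of all 8462 genes tested (22 higher and 31 lower in AgRP-Gq;POMC-Gi), 1 of 9 had an unadjusted p under 0.05, against 10.3% of all genes, and DESeq2 called 0 of 9. The libraries of the groups did not overlap for 2 of the 9 genes, against 37.4% of all genes. The median log2 fold change of the 9 was 0.03, with 7 above 0 and 2 below, and that of all genes was -0.00.

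*Aqp4* came nearest to the threshold. It stood at 353 and 320.3 CPM in control libraries and at 446 and 441 CPM in the AgRP-Gq;POMC-Gi group, so that both of the latter were higher. The log2 fold change, AgRP-Gq;POMC-Gi against control as throughout, was 0.44 (SE 0.14, edgeR unadjusted p = 0.00941, adjusted p = 0.242), and with the replicate number as a block the adjusted p was 0.0461. Its fold change was above 0 in all 11 astrocyte clusters (0.06 to 0.61). Of 5959 genes tested in every cluster, 87 (1.46%) were above 0 and 103 below 0 in all 11. Over the 4 cell types where *Aqp4* was tested, it was above 0 in 2 and below 0 in 2. In ependymal nuclei it was at 394 and 324 against 329.5 and 230.4 CPM, with overlap. The clusters share the 4 libraries and are not replicates of the difference.

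*Glul* was the other gene without overlap, at 539.6 and 509 CPM in the control and 502 and 407 CPM in the AgRP-Gq;POMC-Gi group, a log2 fold change of -0.15 (SE 0.17, edgeR adjusted p = 0.831), below 0 in 9 of 11 clusters but 0.07 for all astrocytes without AgRP-Gq;POMC-Gi 2. *Slc1a3* had 0.31 (SE 0.19, edgeR adjusted p = 0.629), which was 0.00999 without AgRP-Gq;POMC-Gi 1 and 0.56 without AgRP-Gq;POMC-Gi 2. *Gfap* had 0.18 (SE 0.18, edgeR adjusted p = 0.8), or -0.11 without control 2 and likewise without clusters 48 and 54. The sums depend on which clusters the nuclei fall in. Cluster 20, where *Slc1a3* was highest, made up 5.71% and 8.95% of astrocytes in control libraries and 15.4% and 15.8% in AgRP-Gq;POMC-Gi libraries (two-sided exact permutation p = 0.333, the smallest that 2 against 2 allows). From plain CPM, without TMM factors, the log2 ratio of *Slc1a3* was 0.25 over all astrocytes and 0.06 with each cluster given equal weight, and that of *Aqp4* was 0.40 and 0.35. The fold changes of the other genes were 0.10 (SE 0.17) for *Slc4a4*, 0.03 (0.13) for *Gja1*, 0.01 (0.12) for *Aldh1l1*, 0.01 (0.12) for *S100b* and -0.05 (0.17) for *Slc1a2*, of which those of *Gja1*, *Aldh1l1* and *S100b* turned sign without TMM factors.

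**Figure D4:**
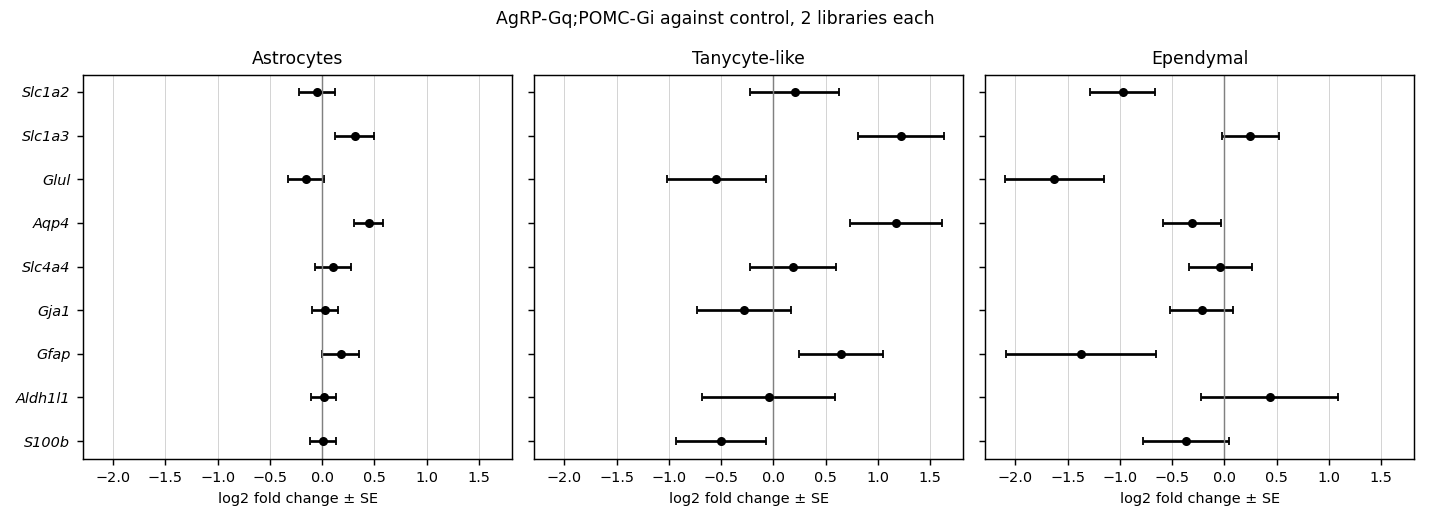
Log2 fold change of each gene (AgRP-Gq;POMC-Gi against control, edgeR, bars ± SE) in astrocytes, tanycyte-like and ependymal nuclei. In astrocytes the 9 values lie between -0.15 and 0.44, and the SE is larger in the other types, which have fewer nuclei.

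Within single astrocyte clusters 1 of 98 tests of the 9 genes was called by edgeR and 0 by DESeq2, with 10 (10.2%) at an unadjusted p under 0.05, against 6.64% of 91635 tests of all genes in these clusters. The clusters share their libraries, so these tests are not independent. *Gfap* in cluster 16 stood at 117 and 95.1 CPM in the control and 34.2 and 44.7 CPM in the AgRP-Gq;POMC-Gi group, a log2 fold change of -1.37 (SE 0.28, edgeR adjusted p = 0.017), where 0.166% of 8417 genes were called. In the same nuclei the tanycyte list summed to 49.6 and 67.7 against 34.2 and 34.1 CPM. Oligodendrocyte markers summed to 640.2 and 787 against 417 and 522 CPM there, and both lists were lower without overlap. The other astrocyte markers without *Gpc5* were higher without overlap, at 3356 and 3170 against 3568 and 3419 CPM. The part of these markers in the difference was not tested. Over the 11 clusters, in the order 15, 16, 17, 18, 20, 21, 22, 36, 48, 52 and 54, the shares of all genes called were 0.199%, 0.166%, 0.164%, 0.38%, 0.168%, 0.0577%, 0.117%, 0.0828%, 0%, 0% and 0.157%. The interaction of cluster 16 with the other astrocytes, run because of that value and so no separate evidence, was -1.68 for *Gfap* (SE 0.28, edgeR adjusted p = 0.00928), where 0.0248% of 8074 genes were called and 3 of the 9 genes had an unadjusted p under 0.05, against 6.16% of all. The interaction was not run with libraries left out. For the difference within cluster 16, leaving out control 1 gave -1.19 with an adjusted p of 0.915, and leaving out AgRP-Gq;POMC-Gi 1 or 2 gave adjusted p-values of 0.0888 and 0.0942, whereas without control 2 it was 0.00374. DESeq2 did not call it (adjusted p = 1.00), nor did edgeR without TMM factors (0.0715). In the other 9 clusters where it was tested, the fold change of *Gfap* ran from -1.11 to 0.89 with none called, and in cluster 48, where its level was highest, it was -0.00. *Slc1a3* in cluster 17 had 0.59 (SE 0.19, edgeR adjusted p = 0.378), and 0.71 with an adjusted p of 0.00997 without AgRP-Gq;POMC-Gi 2, which holds 5.57% of its astrocytes in that cluster against 14.1% to 15.4% in the others.

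**Figure D5:**
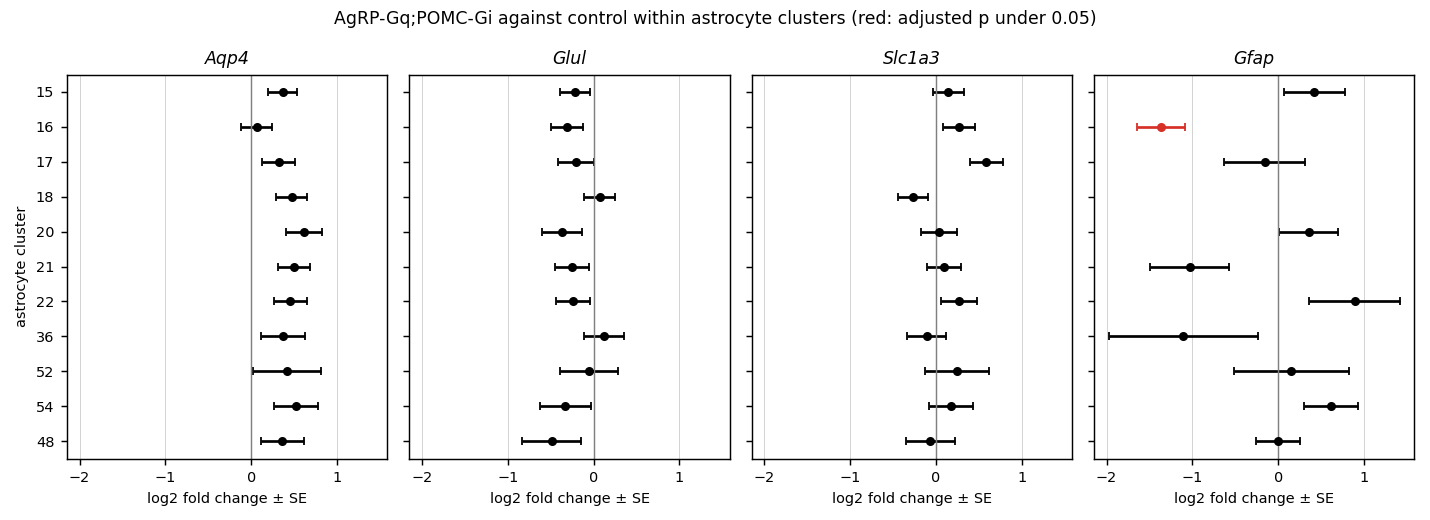
Log2 fold change (AgRP-Gq;POMC-Gi against control, edgeR, bars ± SE) of *Aqp4*, *Glul*, *Slc1a3* and *Gfap* in each of the 11 astrocyte clusters, with red for an adjusted p under 0.05. *Aqp4* lies above 0 in every cluster, and the only red point is *Gfap* in cluster 16. *Gfap* was not tested in cluster 18, where too few nuclei had a UMI.

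In tanycyte-like nuclei edgeR called 0 of 9 genes and 0% of all 8739, DESeq2 called 0 of 9, and 2 of 9 had an unadjusted p under 0.05, against 6.1% of all genes. *Slc1a3* was at 615 and 862 CPM in the control and 1491 and 1521 CPM in the AgRP-Gq;POMC-Gi group (1.22, SE 0.41, adjusted p = 0.687), and without control 2 its adjusted p was 0.0429. *Aqp4* was at 133 and 99.9 CPM (13 and 8 UMIs) against 228 and 242 CPM (47 and 79 UMIs), a log2 fold change of 1.18 (SE 0.44, edgeR adjusted p = 0.757). Both were higher in both AgRP-Gq;POMC-Gi libraries, as was *Gfap*, while *Glul* and *S100b* were lower, and the libraries of the groups did not overlap for these 5 of 9, against 35.5% of all genes. The control libraries hold 26 tanycyte-like nuclei each and the others 67 and 83. Neuron markers in these nuclei summed to 1475 and 2873 CPM in the control and 967 and 978 CPM in the AgRP-Gq;POMC-Gi group, and choroid plexus markers to 953, 3535, 112 and 1521 CPM, and their part in the differences was not tested. In cluster 61 alone *Slc1a3* was at 862 and 886 against 1714 and 1814 CPM, and in the smaller cluster at 455 and 789.7 against 649 and 685 CPM, so the groups did not overlap only in cluster 61.

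In ependymal nuclei edgeR called 0 of 9 genes and 0% of all 8632, DESeq2 called 0 of 9, and 2 of 9 had an unadjusted p under 0.05, against 4.02% of all genes. These were *Glul* and *Slc1a2*. *Glul* was at 74.2 and 134 CPM (19 and 27 UMIs) in the control and 28.8 and 34.8 CPM (7 and 8 UMIs) in the AgRP-Gq;POMC-Gi group (-1.63, SE 0.47, edgeR adjusted p = 0.991). *Slc1a2* was at 234 and 229 against 119 and 109 CPM (-0.97, SE 0.31, edgeR adjusted p = 0.991). Both were without overlap, 2 of 9 genes against 32% of all. In these nuclei the 9 other astrocyte markers were also lower without overlap (1050 and 796 against 741 and 682 CPM). That rests on *Gpc5* (429 and 44.8 against 24.7 and 143 CPM). Without it they overlapped, at 621 and 752 against 717 and 539 CPM. OPC markers were lower without overlap (379 and 557 against 235 and 161 CPM). The part of these markers in the differences was not tested. The difference in effect between astrocytes and these types was tested as an interaction. Against tanycyte-like nuclei it was 0.98 (SE 0.37, edgeR adjusted p = 0.808) for *Slc1a3* and 0.78 (SE 0.41, adjusted p = 0.907) for *Aqp4*, with 0 of 9 called, 1 of 9 at an unadjusted p under 0.05 against 5.51% of all genes, and 0.0133% of 7525 genes called. Against ependymal nuclei it was -1.45 (SE 0.46) for *Glul*, -1.44 (0.62) for *Gfap*, -0.91 (0.37) for *Slc1a2* and -0.75 (0.28) for *Aqp4*. The edgeR adjusted p was 0.995 for each. These were the 4 of 9 at an unadjusted p under 0.05, against 4.76% of all genes. Of the 9 genes 0 were called, and 0% of all 7045.

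In the other types that could be tested, edgeR called 0 of 50 tests of the 9 genes, and 11 (22%) had an unadjusted p under 0.05, against 5.33% of 75241 tests of all genes in these types. These tests repeat the same genes over types of the same 4 libraries and are not independent. The 11 were 3 in Tmem119.Immune, 2 each in F13a1.Immune (88 nuclei), fibroblasts and neurons, and 1 each in endothelial nuclei and oligodendrocytes. Of all genes 0.751% were called in mural nuclei, 0.187% in Ms4a4b.Immune, 0.0444% in OPC, 0.0154% in F13a1.Immune and 0% in the rest. DESeq2 called 1, *Slc1a3* in oligodendrocytes. *Slc1a3* stood at 90.05 and 89.1 CPM in oligodendrocytes of the control and 134 and 123 CPM in those of the AgRP-Gq;POMC-Gi libraries (0.58, SE 0.12, edgeR adjusted p = 0.149, DESeq2 adjusted p = 0.0181), with 0 of 6646 genes called by edgeR and 9.46% at an unadjusted p under 0.05. Its edgeR adjusted p fell to 0.0285 once AgRP-Gq;POMC-Gi 2 was left out and to 0.00225 when replicate numbers were fitted as a block.

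*Gja1* was at 98.1 and 123 CPM in endothelial nuclei of the control and 17.5 and 37.9 CPM in those of the AgRP-Gq;POMC-Gi libraries (-1.86, SE 0.39, edgeR adjusted p = 0.177), and its adjusted p was 0.00549 without control 1 and 0.00788 with the block, where 6.19% of all genes had an unadjusted p under 0.05. *Glul* in neurons was at 27.4 and 24.6 against 12.0 and 19.4 CPM (-0.68, SE 0.18, edgeR adjusted p = 0.81), falling to an adjusted p of 0.00361 when AgRP-Gq;POMC-Gi 2 was dropped and to 0.000689 with the block, where 5.51% of all genes had an unadjusted p under 0.05. In Tmem119.Immune nuclei *Glul* was at 311 and 278 against 184 and 171 CPM (-0.72, SE 0.18, edgeR adjusted p = 0.506) and *S100b* at 78.7 and 70.4 against 28.3 and 39.4 CPM (-1.12, SE 0.32, edgeR adjusted p = 0.644), where 5.94% of all genes had an unadjusted p under 0.05. The endothelial *Gja1* levels rest on 36 and 53 UMIs in the control and 3 and 13 in AgRP-Gq;POMC-Gi libraries. A *Gja1* UMI was found in 13.8% and 15.4% against 2.65% and 6.13% of endothelial nuclei, so it passed the filter largely through the control. Markers of other cells moved with these differences. In endothelial nuclei the 9 other astrocyte markers summed to 553 and 521 against 355 and 291 CPM. Oligodendrocyte markers, whose cells hold as much *Glul* as astrocytes and more *S100b*, summed to 282 and 238 against 138 and 174 CPM in neurons and to 1161 and 1042 against 783 and 841 CPM in Tmem119.Immune nuclei. All 3 sums were lower without overlap in AgRP-Gq;POMC-Gi libraries, and their part in the differences was not tested. Without AgRP-Gq;POMC-Gi 2 edgeR also called *Slc4a4* in neurons (0.26, adjusted p = 0.0270) and *Slc1a2* in oligodendrocytes (-0.70, adjusted p = 0.0370). Choroid plexus was not tested, since control 1 holds 2 such nuclei.

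Counted over types, *Glul* and *Slc1a3* leaned opposite ways. *Glul* had a fold change below 0 in 11 of 13 types, with a median of -0.49. Of 3240 genes tested in the same types, 5.8% were below 0 in at least as many. Oligodendrocytes made up 51.2% and 42.8% of nuclei in the control and 40.1% and 36.5% in AgRP-Gq;POMC-Gi libraries, and their markers were lower without overlap in astrocytes, neurons and Tmem119.Immune nuclei, and the part of this in *Glul* was not tested. *Slc1a3* was above 0 in 8 of 9 types, with a median of 0.58, and 5.56% of 3758 genes were above 0 in at least as many. Its UMIs were few in Ms4a4b.Immune (0 and 1 in the control, 1 and 3 in AgRP-Gq;POMC-Gi libraries) and Oligodendrocytes/OPC (0 and 3 against 11 and 0). Both types passed the filter on nuclei largely through AgRP-Gq;POMC-Gi libraries, and no count was made without them. Each share counts genes only in the leading direction of that gene, chosen after its values were seen, so neither is a test. For the other genes of the 9 such shares ran from 17.2% to 66.6%. The types come from the same 4 libraries, so these counts describe the libraries and add no replicates.

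Among 8 lists of other astrocyte genes, edgeR made calls in that of transcription factors. There 2 of the 12 tested of 13, *Hes1* and *Hes5*, which are targets of Notch signalling, rose, against 0.626% of all genes called in astrocytes. DESeq2 called 3, these and *Id3*, an inhibitor of DNA binding (0.75, DESeq2 adjusted p = 0.0409, edgeR adjusted p = 0.0669), against 1.08% of 6001 genes. *Hes1* was at 55.6 and 54.1 CPM in astrocytes of the control and 122 and 96.4 CPM in those of the AgRP-Gq;POMC-Gi libraries (1.04, SE 0.16, edgeR adjusted p = 0.0197). *Hes5* was at 27.3 and 28.1 CPM and 45.1 and 63.9 CPM (1.02, SE 0.16, edgeR adjusted p = 0.0192). In the same nuclei OPC markers summed to 529 and 551 against 660 and 582 CPM, higher without overlap, while oligodendrocyte markers were lower without overlap (600.2 and 670.5 against 381 and 491 CPM), and their part in the rise was not tested. Both genes were called under all 9 alternatives, and the median over the 12 was 0.27, with 10 above 0.

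In the other lists edgeR called 0 of 41 genes outside the 9 and DESeq2 called 1, and 6 had an unadjusted p under 0.05, against 10.3% of all genes. With members of the 9 left out, the 5 genes of glutamate and GABA uptake and recycling had a median of 0.15 and the 9 of water, potassium and ion transport -0.02. Of 15 other astrocyte enzymes and surface genes 14 were above 0, with a median of 0.15, and 9 genes of metabolism had a median of -0.21. The lists of gap junctions, filaments and reactive astrocytes each had 1 gene expressed in enough nuclei to be tested, *Gjb6* (-0.07), *Synm* (-0.57) and *Stat3* (-0.05). The lists were chosen with earlier results of these data known, and these medians are read beside -0.00 over all genes.

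The share of astrocytes depended on what it was taken of. Astrocytes were 11.3% and 10.8% of nuclei in the control and 10.7% and 11.5% in AgRP-Gq;POMC-Gi libraries, a difference of 0.0619 percentage points (two-sided exact permutation p = 1). Among non-neuronal nuclei they were 15.2% and 14.8% against 17.3% and 18.2%, higher in both AgRP-Gq;POMC-Gi libraries by 2.72 points (exact p = 0.333). Tanycyte-like nuclei were 0.267% and 0.259% against 0.689% and 0.833%, and ependymal nuclei 0.781% and 0.637% against 0.926% and 0.843%. Both were also higher in each AgRP-Gq;POMC-Gi library, at p = 0.333 by the same exact test, the smallest that 2 against 2 libraries allows. Shares of nuclei depend on how the tissue was cut, and choroid plexus and neuron shares moved between libraries as given above.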

How the data were processed

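Nuclei of 4 libraries were sequenced with the 10x Genomics 3′ kit. The authors counted UMIs on GRCm38 (the submitters' processing notes name Cell Ranger 7.0.0 and Seurat 4.3.0) and deposited raw UMI counts per gene and nucleus with a table of nuclei, which gives the percent of mitochondrial UMIs, the kept nuclei, clusters and cell types. The authors ran a doublet caller before keeping nuclei, and no further one was run here. Whether intronic reads were counted is not given in the sources used here. UMIs were summed per library and type or cluster and divided by the sum of all genes to give CPM.

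Groups were compared in R 4.3.3 by edgeR (4.0.16, with limma 3.58.1), using its quasi-likelihood fit and TMM scaling. A gene entered if 5% or more of the nuclei had a UMI of it, and a type or cluster if it had 5 or more nuclei per library, with Benjamini-Hochberg adjustment over all genes and a threshold of 0.05. Alternatives were plain library sizes, DESeq2 (1.42.0), filterByExpr or no filter on genes, the replicate number as a block, each library left out and equal weight of clusters. Those without clusters 48 and 54 or cluster 52, and clusters 61, 141, 37 and 71 alone, were chosen after seeing the data. The tests were tried on simulated data. Other values come from Python 3.11.15 (NumPy 2.4.6, SciPy 1.17.1, pandas 2.3.3). Thinning drew 800 UMIs per nucleus, the fewest in any kept nucleus.

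The 9 genes and the lists were chosen with earlier results of these data known. All 9 were named in every comparison or counted there, and of each list the genes past the threshold in astrocytes, at most 3 per direction. The likest genes were the 3 with the highest r. Replicate numbers of the groups are shared only as numbers. Gene positions are those of GENCODE M21. Another gene of the lists, called by DESeq2 and not by edgeR, is not reported here.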

Additional observations from a re-analysis of the deposited data

Results flagged for a closer look

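The difference in *Gfap* between groups was read apart in cluster 16, after its value there had been seen, and the interaction below restates that value. It was a log2 fold change of -1.37 (SE 0.28) in cluster 16, with 117 and 95.1 CPM in the control and 34.2 and 44.7 CPM in the AgRP-Gq;POMC-Gi group, and the interaction of cluster 16 against the other astrocyte clusters was -1.68 (SE 0.28, edgeR adjusted p = 0.00928, 2 of 8074 genes or 0.0248% called). Its share of astrocytes was 17.2% and 14.9% in the control and 12.8% and 11.4% in AgRP-Gq;POMC-Gi libraries. The interaction was not run with libraries left out, and the call within cluster 16 was lost without control 1 (adjusted p = 0.915), without AgRP-Gq;POMC-Gi 1 (0.0888) and without AgRP-Gq;POMC-Gi 2 (0.0942), as well as with DESeq2 (1.00) and without TMM factors (0.0715).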

How the results depend on the processing

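In astrocytes 0 of the 9 genes were called by each alternative except the replicate block, which called 1, *Aqp4* (0.44, adjusted p = 0.0461). In the other types the count of members called, 0, was 1 with DESeq2, 2 without a filter on genes and 3 with the replicate block (*Gja1* in endothelial nuclei, *Glul* in neurons, *Slc1a3* in oligodendrocytes), and 0 to 4 with 1 library left out. In tanycyte-like nuclei it was 0 to 1 with 1 library left out. In single astrocyte clusters the 1 call was 0 without TMM factors and with DESeq2, and 0 to 1 with 1 library left out. The block changed no other call of a member. Same-numbered libraries deviated together in astrocytes with a correlation of 0.243 over 8462 genes, but with 2 pairs and no statement in the labels the pairing was not established.

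All genes called in astrocytes were 53, and 124 without TMM factors, 305 without a filter, 426 with the block, 103 without cluster 52, and 66 to 158 with 1 library left out. In cluster 16 they were 14, and 9 without TMM factors, 3 with DESeq2, 36 without a filter, 61 with the block, and 0 to 30 with 1 library left out. The cause was not tested.

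Small fold changes in astrocytes turned sign. Without TMM factors *Gja1* was -0.0148, *Aldh1l1* -0.0292 and *S100b* -0.0357. With equal weight of clusters, also without TMM factors, they were -0.00505, -0.0617 and -0.10, so the sign had turned already without these factors. Without clusters 48 and 54 *Gfap* was -0.11 and *Gja1* -0.0291. With 1 library left out *Gfap* ran from -0.11 to 0.55, *Slc1a2* from -0.16 to 0.0696, *Aldh1l1* from -0.0564 to 0.0919, *Glul* from -0.40 to 0.0709, *S100b* from -0.12 to 0.14 and *Slc4a4* from -0.035 to 0.24.

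At full depth 6 genes, not 2, were found in at least 50% of astrocyte nuclei, and the mean number of genes per nucleus was 5.43, not 3.12. Among non-neuronal nuclei only, the difference in share was 2.72 percentage points for astrocytes, 0.855 for tanycyte-like and 0.449 for ependymal nuclei. That of astrocytes among all nuclei ran from -0.347 to 0.470 with 1 library left out. Fewer than 100 tanycyte-like nuclei per library limit what those comparisons could show.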
